A study of Homo sapiens with 12 samples.

Results

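The replication-dependent histone genes encode the linker histone H1 and the core histones H2A, H2B, H3 and H4 that package newly made DNA. They were taken as every gene of the deposited table named H1-1 to H1-6 or carrying a clustered histone symbol of the H2AC, H2BC, H3C or H4C series, with pseudogenes left out. This gave 69 genes of the 62700 in the table. Of these, 6 encode H1, 17 encode H2A, 18 encode H2B, 13 encode H3 and 15 encode H4. The RefSeq annotation of GRCh38.p14 places 55 on chromosome 6, 13 on chromosome 1 and 1 on chromosome 12.

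Poly(A)-selected RNA was sequenced from HCT116 TIM-mAID, a knock-in derivative of a human colorectal carcinoma line in which the replication fork protein TIMELESS carries an auxin-inducible degron. In all, 4 groups of 3 libraries were compared, each taken at 40 h. The first group received the auxin analogue 5-Ph-IAA at 1 µM together with the ATR kinase inhibitor ceralasertib (ATRi) at 1 µM, the next ATRi alone, the next 5-Ph-IAA alone, and the last the vehicle DMSO. All 12 libraries come from this single knock-in line, whose genotype is given as wild type with a CRISPR knock-in of mAID, and the labels do not say how many clones it stands for. The degron removes protein, so the mRNA of the targeted gene checks no label.

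Most mRNAs end in a poly(A) tail, but the main transcripts of these histone genes do not. They end a few bases after a short stem-loop, which the protein SLBP binds and which the U7 small nuclear ribonucleoprotein uses to position the cut. The mRNAs are made mainly in S phase, under NPAT, a target of cyclin E and CDK2, and are degraded when replication stops. Several of the genes also hold a poly(A) signal further downstream, and tailed histone transcripts read through to such signals are known from cells that have left the cycle. Poly(A) selection retains those tailed forms and whatever tailless RNA is carried over, so the values below are not the total output of the genes.

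The stem-loops of the genes the results turn on are shown because they define the normal, tailless end of each mRNA. A perfect stem of 6 bases around a loop of 4 bases was found in a GENCODE 29 transcript of 30 of the 69 genes. Another 32 genes have only coding models there, in which no end can be searched. Each sequence runs 5′ to 3′ on the strand of the gene, with the stem-loop in capitals and 5 bases on either side.
H2AC18: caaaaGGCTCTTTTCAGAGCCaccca
H2AC25: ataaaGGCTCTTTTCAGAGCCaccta
H2BC21: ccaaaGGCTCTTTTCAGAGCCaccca
H2BC26: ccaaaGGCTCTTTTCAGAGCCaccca
H2BC4: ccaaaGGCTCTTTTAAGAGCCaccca
H2BC5: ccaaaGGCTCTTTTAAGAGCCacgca
H3C10: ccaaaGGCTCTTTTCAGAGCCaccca
H3C6: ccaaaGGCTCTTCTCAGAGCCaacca
H4C5: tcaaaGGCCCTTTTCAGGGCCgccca
H4C14: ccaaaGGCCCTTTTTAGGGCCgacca
Among the sequences shown, H2BC4 and H2BC5 share a loop, H3C6 has another, and both H4 genes have a stem that differs from that of the rest. Past the stem-loop the annotated transcripts of H2BC21, H2AC25, H3C10 and H4C5 run on for 1729, 390, 769 and 1022 bases and end within 40 bases of an AATAAA or ATTAAA poly(A) signal. A poly(A) signal end, meaning such a signal in the last 40 bases of any transcript, was found for 23 of the 69 genes. Of these 21 also hold a stem-loop, but in H2BC4 and H2BC15 not in the transcript with the signal. The H4C11 transcript ends 6 bases after its stem-loop, and its signal does not lie past the stem-loop.

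The promoters of H1-2, H2BC21, H2BC4 and H2AC18, a near-identical copy of H2AC19, are shown as examples of genes described below. Each spans 250 bases before and 50 after the RefSeq start in GRCh38.p14, and capitals mark the CCAAT box, the TATA sequence TATAAA, the octamer ATTTGCAT and the H1 box AAACACA on either strand. The motifs were searched separately and could overlap.
H1-2, chr6:26056421-26056720, minus strand: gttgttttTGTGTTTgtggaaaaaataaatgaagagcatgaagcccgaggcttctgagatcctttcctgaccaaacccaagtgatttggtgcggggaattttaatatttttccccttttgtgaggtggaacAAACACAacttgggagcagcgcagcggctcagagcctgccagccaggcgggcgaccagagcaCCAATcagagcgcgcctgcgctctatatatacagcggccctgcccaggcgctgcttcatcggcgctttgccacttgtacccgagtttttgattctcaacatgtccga
H2BC21, chr1:149886633-149886932, minus strand: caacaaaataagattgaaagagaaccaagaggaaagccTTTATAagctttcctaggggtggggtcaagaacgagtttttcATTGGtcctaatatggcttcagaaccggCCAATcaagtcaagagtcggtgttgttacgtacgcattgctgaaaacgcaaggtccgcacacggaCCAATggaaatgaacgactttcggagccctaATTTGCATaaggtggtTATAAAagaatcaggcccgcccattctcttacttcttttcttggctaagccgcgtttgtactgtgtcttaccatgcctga
H2BC4, chr6:26123877-26124176, minus strand: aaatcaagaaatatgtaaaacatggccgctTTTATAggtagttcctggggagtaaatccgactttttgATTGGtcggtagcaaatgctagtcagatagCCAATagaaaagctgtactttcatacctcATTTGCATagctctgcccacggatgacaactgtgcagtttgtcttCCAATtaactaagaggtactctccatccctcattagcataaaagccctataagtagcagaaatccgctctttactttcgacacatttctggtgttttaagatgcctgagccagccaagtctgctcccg
H2AC18, chr1:149842701-149843000, minus strand: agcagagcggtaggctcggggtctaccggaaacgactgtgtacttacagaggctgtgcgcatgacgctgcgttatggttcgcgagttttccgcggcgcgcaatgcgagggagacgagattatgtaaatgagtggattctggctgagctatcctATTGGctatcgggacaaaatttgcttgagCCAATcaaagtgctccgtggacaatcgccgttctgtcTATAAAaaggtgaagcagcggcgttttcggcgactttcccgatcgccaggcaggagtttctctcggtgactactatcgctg
The H2BC4 stretch is also most of the promoter of H2AC6, which starts 246 bases away on the other strand. Of the 69 genes 64 had a promoter in RefSeq. CCAAT was found in 84.4% of these, against 35.7% of 27305 promoters of the same length. Those 27305, called all promoters below, leave out a chromosome that holds none of the 69 genes. CCAAT was in all 6 H1, 16 H2A, 18 H2B and 11 H3 promoters but only 3 of 13 H4 promoters. TATAAA was found in 65.6% of the histone promoters, against 11.95% of all promoters. ATTTGCAT, the binding motif of octamer factors, was found in 14 of 18 H2B and 11 of 16 H2A promoters but in none of the H1 or H4 promoters. Its share of all promoters was 1.80%. AAACACA, a motif known from H1 promoters, was found in all 6 H1 promoters, against 5.76% of all promoters.

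The libraries held 27695914 to 34704725 estimated counts, and levels are given as CPM, the count of a gene relative to its library scaled by TMM (trimmed mean of M values) factors. Mitochondrial genes took 6.63% to 14.9% of them, and a list of 29 small RNAs that normally lack tails took 0.0178% to 0.0996%. EPCAM, CDH1, KRT8, KRT18, KRT19 and CDX2 were present in every library, whereas CDX1, VIL1, CEACAM5 and LGR5 stayed at or below 0.690 CPM. Of the markers of other cell types, COL1A1, CD68 and ACTA2 reached at least 6.37 CPM in every library, and PTPRC, CD3E, CDH5 and SOX10 did not exceed 0.284 CPM. Replicates of a group differed by more than sampling noise in every pair, with a chi-square per gene of 17.2 to 254.6.

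Without that scaling, the histone genes summed to 545, 681 and 532 CPM in the 5-Ph-IAA/ATRi libraries, 346, 333 and 279 CPM in the ATRi libraries, 230, 280 and 152 CPM in the 5-Ph-IAA libraries, and 166, 287 and 134 CPM in the DMSO libraries. Every combination library lay above every other library. DMSO replicate 2 stood well above its fellows and had the highest mitochondrial share of all libraries, 14.9%. In bulk RNA, a different proportion of cells of a type and a different amount of RNA per cell cannot be told apart.

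Counts were concentrated in few genes. H1-2 took 29.1% of all histone counts, H2BC5 19.1%, H2AC6 9.86% and H2BC12 9.78%. After the filter on low counts 33 of the 69 genes were tested, and they held 99.5% of the histone counts. The filter ran over all 12 libraries, so a gene with few counts could pass it through a single group in which it was high. Of the 36 genes not tested, H1-1, H1-3, H2BC10, H3C11, H3C14 and H4C7 had no count in any library, and no value of the other 30 exceeded 18.4 counts. Those 30 genes were H1-5, H1-6, H2AC1, H2AC4, H2AC7, H2AC8, H2AC12, H2AC14, H2AC15, H2AC16, H2AC21, H2BC1, H2BC3, H2BC7, H2BC8, H2BC9, H2BC13, H2BC14, H2BC17, H3C1, H3C2, H3C3, H3C7, H3C8, H3C13, H3C15, H4C1, H4C6, H4C9 and H4C13. The annotation parted the genes partly in the same way. Of the 23 genes with a poly(A) signal end 19 were tested, and they had a median of 1460 counts over the 12 libraries. Of the 46 others 14 were tested, with a median over all 46 of 32 counts. The 23 held 59% of the histone counts and the 46 others 41%. H1-2 and H2BC12 are among these others because GENCODE 29 holds only coding models of them.

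Under combined treatment, histone transcripts captured by poly(A) selection rose. Of the 33 genes tested against DMSO, 12 rose and 0 fell (edgeR quasi-likelihood test, adjusted p below 0.05), where 6.24% of the 18049 genes tested rose and 6.89% fell. The 12 were both tested H1 genes, H1-2 and H1-4, the H2A gene H2AC25, the H2B genes H2BC4, H2BC5, H2BC11, H2BC12, H2BC21 and H2BC26, the H3 gene H3C10, and the H4 genes H4C5 and H4C12. The median log2 change over the 33 was 1.20, against -0.02 over all genes tested. Of the 19 tested genes with a poly(A) signal end 7 rose, with a median of 1.37. Of the 14 tested genes without one 5 rose, with a median of 1.19. Genes with few counts could be among the 33 only because they were high in the combination. With no count filter 63 histone genes were tested and 13 rose (edgeR, adjusted p below 0.05), where 826 of 40661 genes rose. The median of the 63 was 1.08, against 0.0714 over all genes then tested. The combination libraries all lay above the DMSO libraries for 19 of the 33, against 16.4% of all genes tested, and all below them for H4C11. Near-identical genes, whose reads cannot be told apart, are counted singly here. Among the 19, H4C14 overlapped when summed with its copy H4C15, whereas H4C12 summed with H4C11 did not overlap. Over the same libraries the mitochondrial share averaged 12.2% ± 1.63 in the combination and 9.81% ± 4.49 in DMSO (SD, n = 3 each, exact permutation test, 2-sided p = 0.5). The share of the tailless small RNAs averaged 0.0482% ± 0.0448 in the combination and 0.0301% ± 0.0108 in DMSO (exact permutation test, 2-sided p = 0.9). Combination replicate 2 was the highest library in that share, 0.0996%, and in the histone total. With the mitochondrial share as a covariate 15 histone genes passed, where 3183 of 18049 genes rose. With the log2 share of tailless RNAs as a covariate 11 histone genes passed, where 959 of 18049 genes rose. Of a list of 14 markers of other cell types, 8 also lay higher in every combination library than in any DMSO library, though most were close to 0. CD68, a macrophage marker, held 28.7 to 37.1 CPM in the combination and 7.83 to 9.71 CPM in DMSO, and ACTA2, a smooth muscle actin, 24.6 to 31.1 CPM in the combination and 6.37 to 9.52 CPM in DMSO. COL1A1, a fibroblast collagen, overlapped between the groups, at 42.6 to 69.2 CPM in the combination and 35.1 to 105.8 CPM in DMSO. The list summed to 106 to 127 CPM in the combination, 73.5 to 114 CPM in ATRi, 61.4 to 122 CPM in 5-Ph-IAA and 51.5 to 125 CPM in DMSO, while PTPRC, CD3E, CDH5 and SOX10, which define leukocytes, T cells, endothelium and glia, were near 0. Of a list of 10 colorectal epithelial markers, 5 lay higher in every combination library than in any DMSO library, and the rest overlapped. The 5 were KRT8, KRT18, KRT19, CDX2 and VIL1. This epithelial list summed to 9990 to 11400 CPM in the combination and 4290 to 6380 CPM in DMSO. The part of either list of markers in the histone result was not tested.

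**Figure D1:**
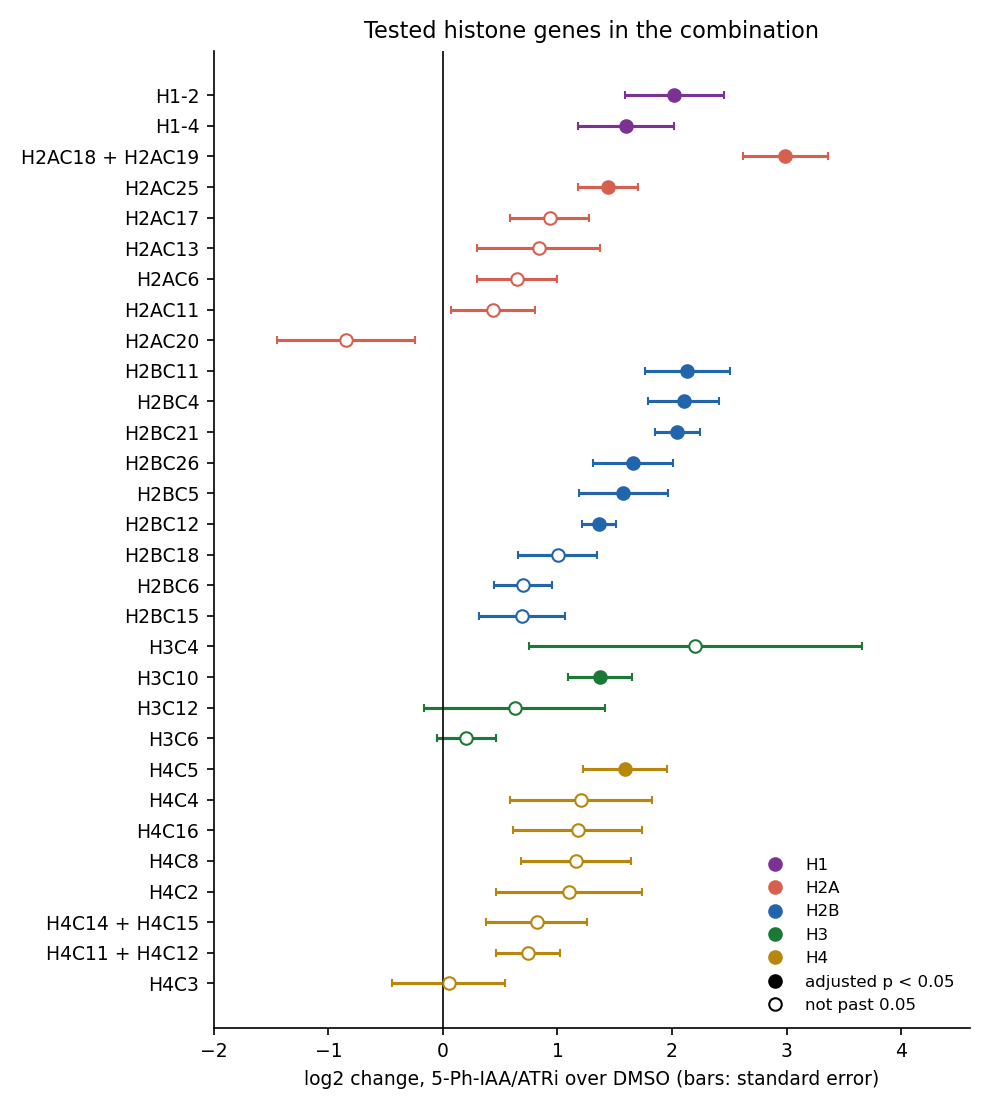
Log2 change of 30 tested histone rows in 5-Ph-IAA/ATRi over DMSO, with bars for the standard error. Colours give the histone class, near-identical copies are drawn as 3 sums, and filled points passed an adjusted p of 0.05. Every H1 and H2B point lies right of 0, and only H2AC20 lies left of it.

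H1-2 encodes a linker histone, which binds the DNA between nucleosomes, and was the most counted histone gene. It reached 183, 248 and 171 CPM in 5-Ph-IAA/ATRi, 117, 88.2 and 74.1 CPM in ATRi, 59.7, 58.1 and 28.4 CPM in 5-Ph-IAA, and 33.1, 88.6 and 26.8 CPM in DMSO. The combination libraries lay above all others, and DMSO replicate 2 overlapped with the ATRi libraries. Its log2 change in the combination over DMSO was 2.02 ± 0.43 (SE, edgeR adjusted p = 0.0108), and without DMSO replicate 1 the adjusted p was 0.0546. H1-4, another linker histone, was far less counted, at 0.787, 0.872 and 0.888 CPM in the combination, 0.328, 0.305 and 0.649 CPM in ATRi, 0.218, 0.122 and 0.174 CPM in 5-Ph-IAA, and 0.402, 0.141 and 0.283 CPM in DMSO. The combination stood clear of the other groups, and the change over DMSO was 1.597 ± 0.421 (adjusted p = 0.0289). Its libraries held 4 to 25 counts, with 22, 24 and 25 in the combination, so it could pass the count filter through that group. With no count filter H1-4 did not pass (edgeR adjusted p = 0.0602). The call was also lost in 5 of the 6 fits that left out a library. Without combination replicate 1, 2 or 3 the adjusted p was 0.0713, 0.0833 or 0.0856, and without DMSO replicate 2 or 3 it was 0.0708 or 0.0744.

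H2B was the class with the most calls. All 9 tested H2B genes had a positive log2 change in the combination, with a median of 1.57, and 6 passed the test. H2BC21, an H2B gene of the chromosome 1 cluster, held 14.1, 13.5 and 13.4 CPM in 5-Ph-IAA/ATRi, 5.31, 6.11 and 6.26 CPM in ATRi, 3.31, 4.83 and 3.51 CPM in 5-Ph-IAA, and 2.75, 4.09 and 3.09 CPM in DMSO. The combination libraries agree closely with each other and stand clear of the rest, and ATRi lies above 5-Ph-IAA and DMSO without overlap. The change over DMSO was 2.04 ± 0.20 (edgeR adjusted p = 0.000112). H2BC4, whose promoter is printed above, held 11.3, 13.2 and 11.9 CPM in the combination, 5.64, 5.22 and 4.23 CPM in ATRi, 3.34, 4.61 and 2.50 CPM in 5-Ph-IAA, and 2.47, 4.27 and 1.79 CPM in DMSO. Again the combination stood apart, whereas single treatments overlapped with DMSO replicate 2. Its change was 2.10 ± 0.31 (adjusted p = 0.00145).

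H2BC12 held 44.2, 54.9 and 50.3 CPM in the combination, 31.4, 37.6 and 38.5 CPM in ATRi, 19.97, 25.4 and 22.8 CPM in 5-Ph-IAA, and 18.7, 17.03 and 22.2 CPM in DMSO. It was the H2B gene with the smallest standard error, and here DMSO replicate 2 was the lowest of its group, not the highest. The change was 1.37 ± 0.15 (edgeR adjusted p = 0.000237). H2BC12 spans H4C9 in RefSeq, so reads of the shared stretch could be given to either, but H4C9 had at most 7 counts. H2BC5 held 104, 135 and 95.4 CPM in the combination, 73.8, 61.7 and 46.7 CPM in ATRi, 53.5, 54.5 and 27.1 CPM in 5-Ph-IAA, and 31.1, 61.8 and 19.7 CPM in DMSO. Only the combination cleared the DMSO range, and the change of 1.57 ± 0.39 (adjusted p = 0.0214) was lost without combination replicate 1 or 2, at adjusted p of 0.0525 or 0.0788, and without DMSO replicate 1 or 3, at 0.0886 or 0.0557.

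The remaining H2B calls were of genes with lower counts. H2BC11 held 2.47, 2.73 and 2.88 CPM in the combination, 0.865, 1.28 and 1.61 CPM in ATRi, 0.908, 0.672 and 0.581 CPM in 5-Ph-IAA, and 0.309, 0.635 and 0.879 CPM in DMSO. The combination stood clear of the rest, with a change over DMSO of 2.13 ± 0.37 (edgeR adjusted p = 0.00345). H2BC26 held 2.18, 2.69 and 2.24 CPM in the combination, 1.85, 1.53 and 1.33 CPM in ATRi, 0.872, 1.13 and 0.552 CPM in 5-Ph-IAA, and 0.649, 1.13 and 0.482 CPM in DMSO. Here both the combination and ATRi lay above every DMSO library. Its change was 1.66 ± 0.35 (adjusted p = 0.00994), and 0.051 was the adjusted p without DMSO replicate 1. The 3 tested H2B genes that did not pass were H2BC18, H2BC6 and H2BC15, with log2 changes of 1.00, 0.70 and 0.69 and adjusted p of 0.0797, 0.0953 and 0.267.

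**Figure D2:**
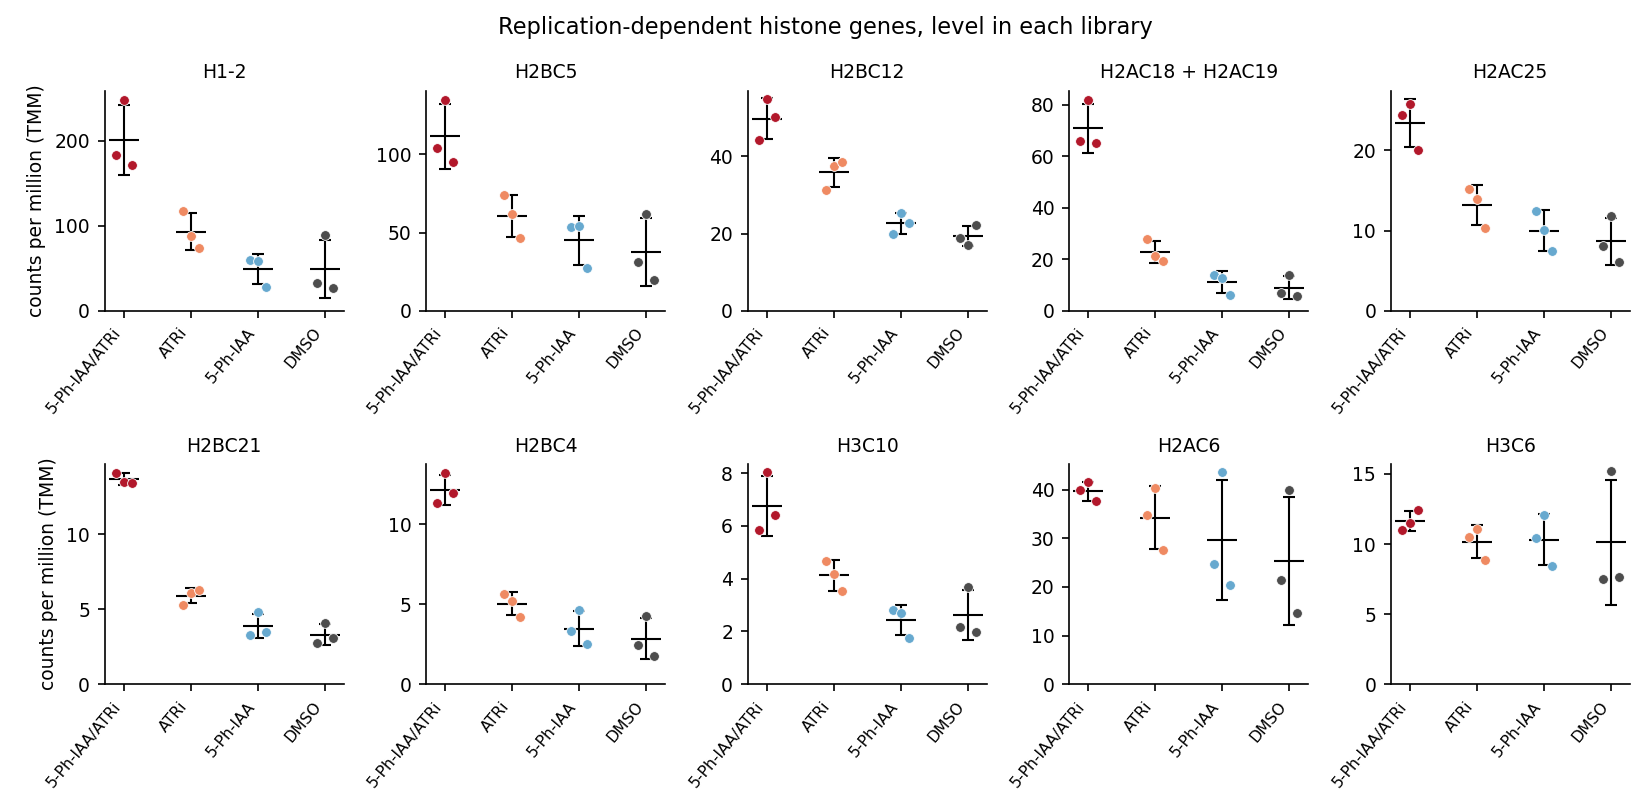
CPM scaled by TMM for 10 histone rows in each library, with groups from left to right 5-Ph-IAA/ATRi, ATRi, 5-Ph-IAA and DMSO. Dots are the 3 libraries, the horizontal tick is the group mean and the bar its SD. The combination libraries of H2BC21 sit between 13.4 and 14.1 CPM, above all others, whereas those of H2AC6 and H3C6 lie within the range of the other groups.

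Among H2A genes, the highest change belonged to H2AC18 and H2AC19. These genes lie in the duplicated block of chromosome 1, at chr1:149842218-149842750 and chr1:149851061-149851594, and all 50-base words of the H2AC18 transcript recur in that of H2AC19. Reads cannot be assigned between them, and the deposited estimates were not stable. H2AC18 was given 100%, 41.6% and 13.3% of the pair's counts in the combination libraries, 36.9%, 73.1% and 66.4% in ATRi, 100%, 0% and 100% in 5-Ph-IAA, and 0%, 100% and 100% in DMSO. Taken singly, neither copy passed the test, with adjusted p of 0.283 for H2AC18 and 0.274 for H2AC19. H4C15 overlaps H2AC19 in RefSeq, and reads of the overlap could be given to either.

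Their sum was stable. H2AC18 with H2AC19 held 65.8, 81.7 and 65.0 CPM in 5-Ph-IAA/ATRi, 27.7, 21.4 and 19.2 CPM in ATRi, 14.1, 12.9 and 6.13 CPM in 5-Ph-IAA, and 7.05, 14 and 5.75 CPM in DMSO. The combination lay above ATRi, and ATRi above 5-Ph-IAA and DMSO, with no overlap at either step. In the combination the sum averaged 7.93 times its DMSO mean, with a log2 change of 2.99 ± 0.37 (edgeR adjusted p = 0.000518). It was the largest change over DMSO among the 30 rows left after summing the 3 pairs drawn in the plot of changes, and it passed in all 19 alternative settings run, at 2.74 to 3.52.

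**Figure D3:**
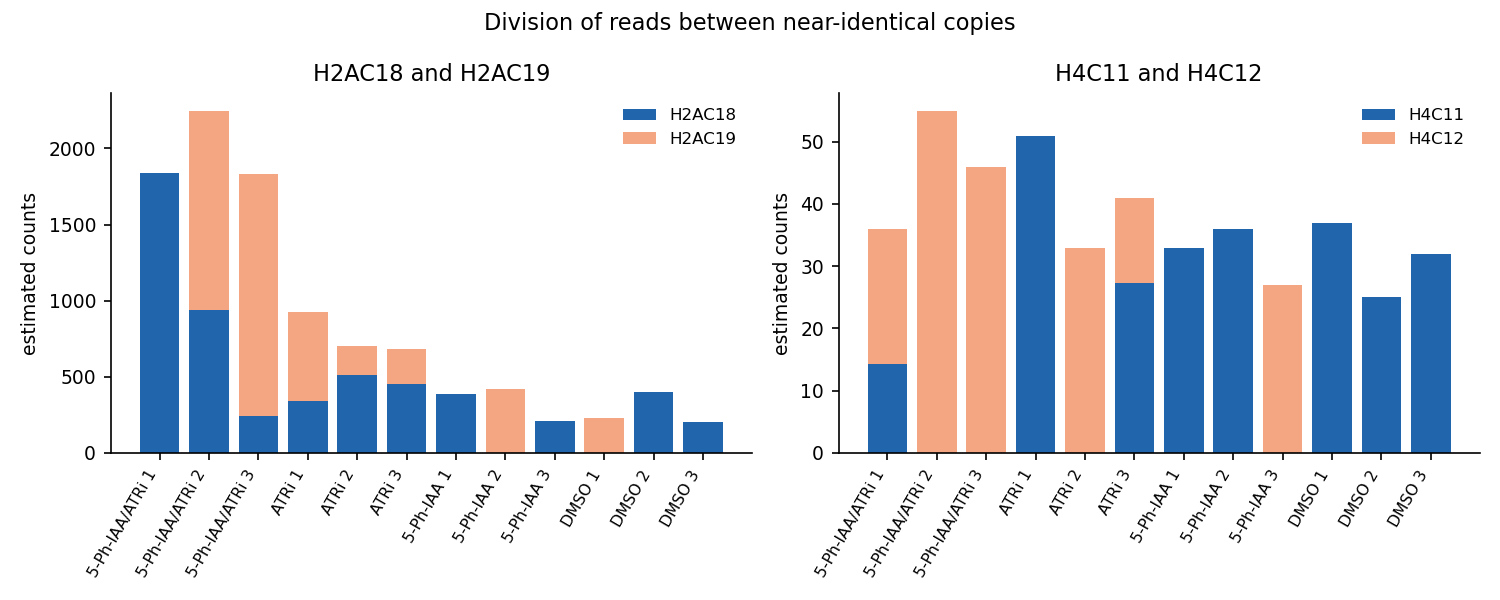
Estimated counts given to each copy of a near-identical pair in the 12 libraries, stacked. For H2AC18 and H2AC19 the height of the bar separates the combination from the rest while the division between copies swings from 0% to 100%, and the H4C11 and H4C12 bars stay between 25 and 55 counts.

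H2AC25, an H2A gene of the small cluster further along chromosome 1, held 24.4, 25.8 and 20.1 CPM in the combination, 15.2, 13.96 and 10.3 CPM in ATRi, 12.5, 10.1 and 7.43 CPM in 5-Ph-IAA, and 8.07, 11.8 and 6.07 CPM in DMSO. Only the combination stood clear of the others. The change over DMSO was 1.44 ± 0.26 (edgeR adjusted p = 0.00455). H2AC6, the most counted H2A gene, held 39.9, 41.5 and 37.6 CPM in the combination, 34.8, 40.4 and 27.6 CPM in ATRi, 24.8, 43.7 and 20.4 CPM in 5-Ph-IAA, and 21.5, 40.0 and 14.5 CPM in DMSO. In H2AC6, 1 library of each other group reached the combination's level, and the change of 0.65 ± 0.35 did not pass (adjusted p = 0.265). The other tested H2A genes, H2AC17, H2AC13, H2AC11 and H2AC20, had log2 changes of 0.93, 0.83, 0.44 and -0.85 and did not pass. Some of these also share sequence with another gene, and their single values are uncertain. H2AC13 shares 62.3% of its 50-base words with H2AC14, and summed the pair changed by 0.47 ± 0.41 (adjusted p = 0.519). H2AC17 shares 86.3% of its words with H3C12, and that sum changed by 0.77 ± 0.44 (adjusted p = 0.299). H2AC20 shares 30.5% of its words with H2AC18 and H2AC19. H3C14 and H3C15, neither of them tested, share all of theirs.

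H3 and H4 gave few calls. H3C10 held 5.83, 8.03 and 6.43 CPM in the combination, 4.68, 4.18 and 3.53 CPM in ATRi, 2.80, 2.72 and 1.77 CPM in 5-Ph-IAA, and 2.17, 3.70 and 1.98 CPM in DMSO. The combination lay above the rest, and the change over DMSO was 1.37 ± 0.28 (edgeR adjusted p = 0.00778). H3C6, the most counted H3 gene, held 11.02, 11.5 and 12.4 CPM in the combination, 10.5, 11.1 and 8.83 CPM in ATRi, 10.4, 12.1 and 8.45 CPM in 5-Ph-IAA, and 7.48, 15.2 and 7.63 CPM in DMSO. All groups overlapped, and the change was 0.21 ± 0.26 (adjusted p = 0.675). H3C4, which overlaps H2AC7, and H3C12 were the other tested H3 genes and did not pass, at 2.20 ± 1.45 and 0.63 ± 0.79.

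H4C5 held 1.47, 1.27 and 1.14 CPM in the combination, 0.507, 0.428 and 0.480 CPM in ATRi, 0.327, 0.428 and 0.203 CPM in 5-Ph-IAA, and 0.340, 0.670 and 0.283 CPM in DMSO. The combination stood clear while the other groups overlapped. The change was 1.59 ± 0.37 (edgeR adjusted p = 0.0157), and the adjusted p was 0.0623 without combination replicate 1 and 0.0737 or 0.0601 without DMSO replicate 1 or 3. H4C12 was called against DMSO at an adjusted p of 0.0488, with 21.8, 55.0 and 46.0 estimated counts in the combination and none in any DMSO library. With 3 counts per library as the floor, it was at least 15.6-fold higher in the combination. All 50-base words of the H4C12 transcript recur in that of H4C11, however, and H4C11 was given 14.2, 0 and 0 counts in the combination and 37, 25 and 32 in DMSO. Summed, the pair changed by 0.74 ± 0.28 (adjusted p = 0.107), and the call of H4C12 alone was lost without any of the 6 libraries in turn, at adjusted p of 0.0785 to 0.123. H4C14 with H4C15, also copies in the chromosome 1 block, held 23.2, 28.6 and 26.5 CPM in the combination, 15.8, 25.3 and 17.1 CPM in ATRi, 11.8, 30.5 and 10.1 CPM in 5-Ph-IAA, and 11.4, 24.4 and 8.67 CPM in DMSO. The highest library was a 5-Ph-IAA one, and the change in the combination over DMSO, 0.82 ± 0.44, did not pass (adjusted p = 0.269). H4C4, H4C16, H4C8, H4C2 and H4C3, the other tested H4 genes, had changes of 1.20, 1.18, 1.16, 1.1 and 0.05 and did not pass.

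Many H2A and H2B genes lie head to head and start from a single short stretch of DNA. Of 11 such H2A and H2B pairs among the 64 genes with a RefSeq promoter, with starts under 1000 bases apart, 4 had both genes tested. The log2 ratio of H2B to H2A counts was compared within each library for these 4, a comparison chosen after the values had been seen, with 0.5 added to each count. For H2BC4 over H2AC6 the ratio was -1.81 to -1.65 in the combination and -3.22 to -3.02 in DMSO. Without overlap, the combination thus held more of the H2B partner, by 1.41 on the log2 scale. H2BC21 over H2AC20 stood at 5.42 to 7.23 in the combination and 3.06 to 3.67 in DMSO, a difference of 3.04. The size of that difference is uncertain, because H2AC20 held only 3.03, 8.16 and 2.01 counts in the combination. In DMSO it held 10.2, 9.02 and 8.04 counts, and its own change of -0.85 did not pass (edgeR adjusted p = 0.414). H2AC20 also shares 30.5% of its words with H2AC18 and H2AC19, so its counts may be misassigned. H2BC11 over H2AC11 stood at 1.57 to 1.92 in the combination and -1.22 to 0.96 in DMSO, a difference of 1.72. These 3 pairs each gave an exact permutation p of 0.1, the smallest that 3 libraries against 3 allow (adjusted over the 4 pairs, 0.133). H2BC26 over H2AC25 overlapped between the groups, at -3.47 to -3.16 in the combination and -3.62 to -3.36 in DMSO (exact permutation p = 0.2), and both its genes rose.

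ATRi alone was compared with DMSO, using the same DMSO libraries. Of the 33 tested histone genes 0 rose and 0 fell (edgeR), where 0.0665% of all genes tested rose. At an unadjusted p below 0.05 there were 9, against 4.86% of all genes tested, and DESeq2 called 2, against 0.565% of its genes. The median log2 change was 0.42, against -0.02 over all genes tested, and 25 of the 33 were positive. The ATRi libraries lay above the DMSO libraries for 5 of the 33, against 4.73% of all genes tested. H2BC12 was nearest to the threshold, with a log2 change of 0.89 ± 0.15 (edgeR adjusted p = 0.0645). H2BC21 changed by 0.83 ± 0.19 (adjusted p = 0.274), and H2AC18 with H2AC19 by 1.35 ± 0.35 (adjusted p = 0.442). That pair passed in 3 of 19 alternative settings, DESeq2 (1.35, adjusted p = 0.0336), no count filter (edgeR, 1.36, adjusted p = 0.048) and the mitochondrial covariate (edgeR, 1.34, adjusted p = 0.00413). H1-2 changed by 0.91 ± 0.42 (adjusted p = 1).

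5-Ph-IAA alone gave no call either. Against DMSO 0 of 33 histone genes rose or fell (edgeR), where 0.00554% of all genes tested rose, and 0 had an unadjusted p below 0.05, against 1.32% of all genes tested. DESeq2 also called 0, against 0.108% of its genes. The median log2 change was 0.03, against -0.01 over all genes tested. H2AC18 with H2AC19 changed by 0.30 ± 0.35, H2BC4 by 0.30 ± 0.31, H2BC12 by 0.23 ± 0.15 and H1-2 by -0.02 ± 0.42, all at an adjusted p of 1. H1-4 and H4C5 had negative values, -0.70 ± 0.47 and -0.42 ± 0.39, and did not pass.

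**Figure D4:**
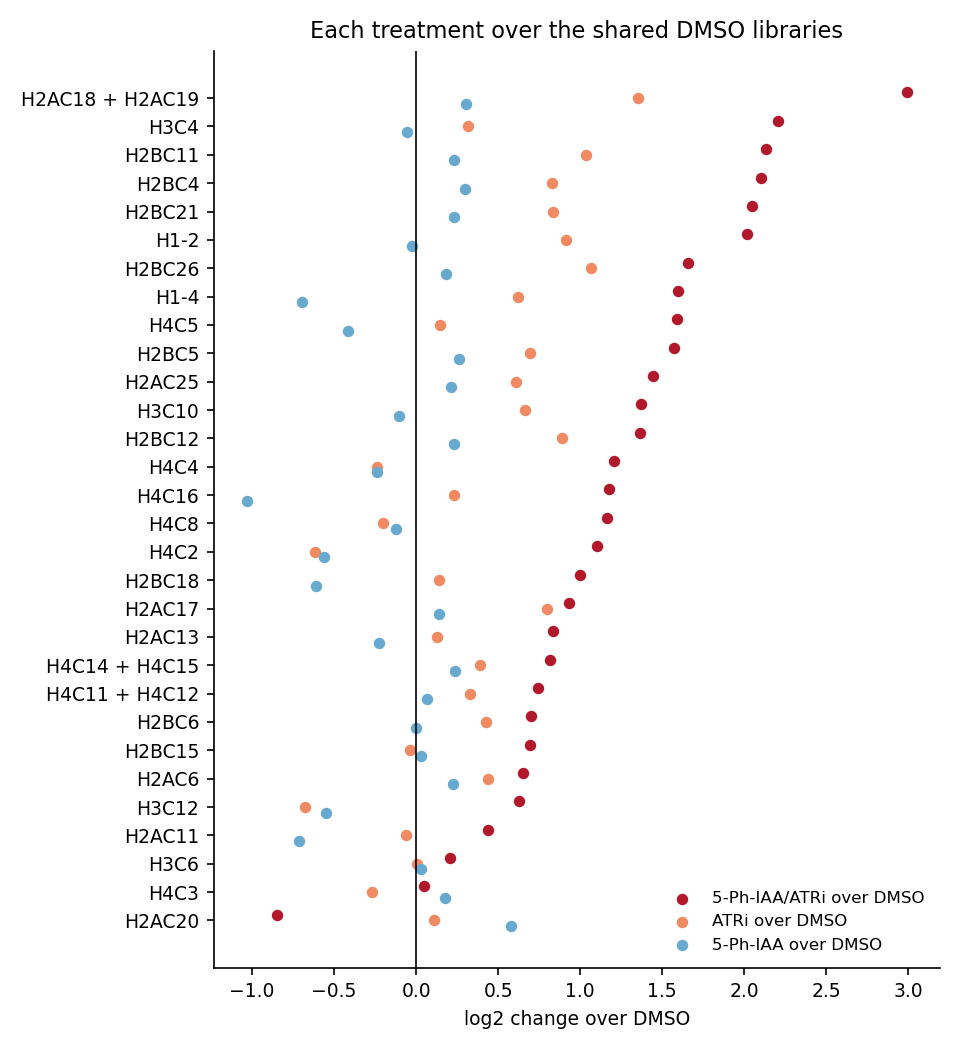
Log2 change over DMSO of 30 histone rows under 5-Ph-IAA/ATRi, ATRi and 5-Ph-IAA, ordered by the change in the combination. The 3 comparisons share the DMSO libraries. The combination lies right of ATRi for H2AC18 with H2AC19 (2.99 and 1.35) and for H2BC21 (2.04 and 0.83), and 5-Ph-IAA lies near 0 for most rows.

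The combination was also set against each single treatment. Over ATRi, H2BC21 and H2BC4 rose, 2 of 33, with 0 lower, where 1.63% of all genes tested rose and 1.88% fell (edgeR). The median log2 change was 0.86, against -0.0049 over all genes tested, and the combination libraries lay above the ATRi libraries for 16 of the 33, against 12.9% of all genes tested. H2BC21 changed by 1.21 ± 0.19 (adjusted p = 0.00791) and passed without each of the 6 libraries in turn. H2BC4 changed by 1.27 ± 0.30 (adjusted p = 0.0414), and its adjusted p without each library in turn was 0.105 to 0.151, so that 1 gene was then called. H2AC18 with H2AC19 changed by 1.64 ± 0.35 (adjusted p = 0.0299), with 0.0732 to 0.115 without each library in turn. H1-2 and H2BC12 did not pass, at 1.11 ± 0.42 (adjusted p = 0.2) and 0.47 ± 0.15 (adjusted p = 0.109).

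Over 5-Ph-IAA, 12 of the 33 rose and 0 fell, where 4.38% of all genes tested rose and 5.04% fell (edgeR), and the median log2 change was 1.31. Without combination replicate 2 the number was 7, where 379 of 18405 genes rose. Called here and not over DMSO were H2BC18, at 1.61 ± 0.36 (adjusted p = 0.0169), and H4C16, at 2.21 ± 0.62 (adjusted p = 0.0462). H4C16 was lost without combination replicate 2 or 3 or any 5-Ph-IAA library, at 0.1 to 0.16, and H2BC18 without combination replicate 2 or 3 or 5-Ph-IAA replicate 3, at 0.0563 to 0.074. With no count filter neither H4C16 nor H2BC18 passed (edgeR adjusted p = 0.0645 and 0.0585). H1-2 changed by 2.04 ± 0.43 (adjusted p = 0.0141, and 0.0549 without combination replicate 2). H2BC21 changed by 1.81 ± 0.19 (adjusted p = 0.000336), and H2AC18 with H2AC19 by 2.69 ± 0.37 (adjusted p = 0.00146).

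Whether the combination exceeded the sum of the single changes was tested as an interaction. Of the 33 genes 0 passed (edgeR), where 0.0776% of all genes tested passed in either direction, 8 had an unadjusted p below 0.05, against 7.3% of all genes tested, and DESeq2 called 1, against 1.22% of its genes. The median over the 33 was 0.87 on the log2 scale, against 0.0028 over all genes tested, and 27 were positive. H2BC21 had an interaction of 0.98 ± 0.27 (adjusted p = 0.322), H4C5 of 1.86 ± 0.53 (adjusted p = 0.346), and H2AC18 with H2AC19 of 1.33 ± 0.49 (adjusted p = 0.558). With the mitochondrial share as a covariate the H2AC18 with H2AC19 pair passed, at 1.15 (edgeR adjusted p = 0.043).

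The classes took different parts of the histone counts in the combination. H1 genes made up 33.7% ± 1.94 of them in 5-Ph-IAA/ATRi, 29% ± 3.31 in ATRi, 22.1% ± 3.44 in 5-Ph-IAA and 23.7% ± 4.86 in DMSO (SD, n = 3 each). H3 genes made up 3.56% ± 0.456 in 5-Ph-IAA/ATRi, 4.79% ± 0.329 in ATRi, 6.45% ± 0.707 in 5-Ph-IAA and 7.21% ± 0.898 in DMSO. H4 genes made up 5.48% ± 0.597 in 5-Ph-IAA/ATRi, 7.15% ± 1.65 in ATRi, 9.02% ± 2.79 in 5-Ph-IAA and 9.06% ± 0.625 in DMSO. The H1 share was thus larger and the H3 and H4 shares smaller in the combination than in DMSO, without overlap of mean ± SD, while H2A genes held 22.5% to 23.8% on average in every group. Few genes carry these class shares. Over all libraries H1-2 held 29.1% of the histone counts and H1-4 0.13%, so the H1 share is nearly that of H1-2. H3C6 held 3.24% and H3C10 1.2%, and H4C15 and H4C14 held 4.02% and 1.91%. The shares therefore do not describe the classes as a whole. These are shares of counts, not corrected for transcript length, and were not tested.

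The genes that make, carry or replace these histones were also compared in the combination over DMSO. Of all genes tested, 6.24% rose and 6.89% fell. In the list of histone mRNA transcription and processing factors, 1 of 19 rose and 0 fell, which is near those shares. The median log2 change of the list was -0.11, against -0.02 over all genes tested. The call was NCBP2, a cap-binding subunit, at 0.52 ± 0.10 (edgeR adjusted p = 0.0058). SLBP, the stem-loop binding protein, held 76.8, 80.7 and 71.8 CPM in the combination and 102, 65.5 and 116 CPM in DMSO, overlapping (adjusted p = 0.404). NPAT held 15.1, 15.3 and 18.8 CPM in the combination and 21.8, 12.02 and 32.1 CPM in DMSO, also overlapping (adjusted p = 0.498).

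Replication-independent and variant histones fell where they changed, 6 of 12, with 0 higher and a median of -0.65. For this list and the next ones, the shares over all genes tested were 6.89% lower and 6.24% higher, with a median of -0.02. H2AZ1, H2AX and CENPA, the centromeric H3, fell by 1.39, 1.19 and 2.50 on the log2 scale (edgeR). Of 22 histone chaperones 6 fell and 0 rose, with a median of -0.60. HJURP, the CENPA chaperone, fell by 2.82, ASF1B by 2.01 and NASP, which holds soluble H3 and H4, by 1.01. Of 33 S phase genes 18 fell and 0 rose, with a median of -1.65, among them CCNA2, RRM2 and DTL, which fell by 2.57, 2.53 and 2.43. CDKN1A, which encodes the CDK inhibitor p21, rose by 3.24 ± 0.19 (adjusted p = 6.23e-06). The part of any of these in the histone values was not tested.

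**Figure D5:**
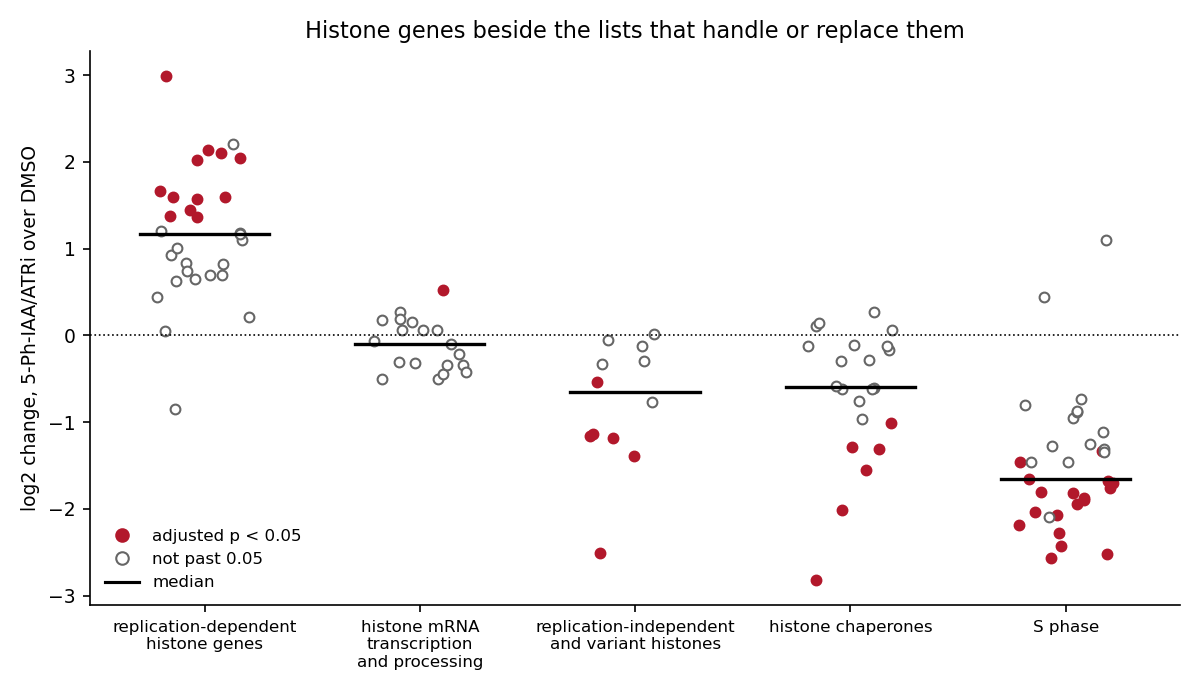
Log2 change in 5-Ph-IAA/ATRi over DMSO for 30 histone rows and 4 other lists, with 1 dot per gene, red where the adjusted p was below 0.05, and a bar at the median. The histone median is 1.169 with near-identical copies summed, whereas the medians of variant histones (-0.65), chaperones (-0.60) and S phase genes (-1.65) lie below 0.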

How the data were processed

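RNA was column-purified, treated with DNase, selected for poly(A) tails and turned into strand-marked libraries, per the labels' protocols. The authors deposited estimated counts per gene made with Salmon 1.10.1, on GRCh38.p14, per the submitters' processing notes, which also name STAR 2.7.9a, SAMtools 1.17, cutadapt 3.4, Trim Galore 0.6.7 and FastQC 0.12.1. Which annotation release and strand setting were used is not given in the sources used here, so overlapping genes are uncertain. Estimated counts divide reads among like transcripts, and 17.4% of the histone values lay more than 0.01 from a whole number.

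Counts were rounded and fitted over all 12 libraries with edgeR 4.0.16 (R 4.3.3; TMM scaling, filterByExpr with a minimum count of 10 and total of 15, quasi-likelihood test, 1 mean per group). Benjamini-Hochberg adjustment ran over 18049 genes, with a threshold of 0.05, and standard errors are the log2 change over the root of F. Levels are CPM scaled by TMM, and the histone totals are CPM of all counts. Groups came from the titles, and the design text calls the 3 libraries of a group biological replicates. Copies sharing over 50% of 50-base words were also summed before fitting. Stem-loops and ends came from GENCODE 29, with 65 genes matched by ID and 4 by older symbol, and promoters from RefSeq. Alternatives were DESeq2 1.42.0, limma-voom 3.58.1, other scalings and filters, covariates, left-out libraries and summed pairs.

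Genes named were those called in any comparison, the 15 most counted, the largest changes and those not tested, plus up to 3 per other list. The histone genes and lists were chosen with earlier results of these data known. The deviations of same-numbered libraries correlated at 0.18 to 0.54 for the combination with 5-Ph-IAA and at 0.251 to 0.702 for ATRi with 5-Ph-IAA. For each other pair of groups the lowest correlation was negative and the highest was 0.499 to 0.756. Of the 18 correlations 13 were over 0.1. No correlation was computed between libraries with different numbers, so these values cannot decide whether the set numbers pair the libraries.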

Additional observations from a re-analysis of the deposited data

How the results depend on the processing

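The 12 histone genes called in the combination over DMSO became 8 to 15 without 1 library and 11 to 15 under the other settings. In every fit 0 were lower. Over all genes, 570 to 1066 of 18363 to 18503 then rose without 1 library. Under the other settings 772 to 3183 of 15015 to 40661 genes rose, against 1126 in the main fit. The histone median stayed positive, at 1.12 to 1.47 without 1 library and 1.59 under the stricter filter. It was 1.49 over the 8 libraries left when each group lost its library with the highest mitochondrial share. That last setting and the summing of all 6 near-identical pairs were chosen after seeing the data. For ATRi over DMSO the count was 1 under upper quartile factors, no count filter and the stricter filter. Over all genes 17 of 18049, 24 of 40661 and 18 of 15015 then rose. The count was 2 under DESeq2, the replicate block and the mitochondrial covariate. There 68 of 18043, 55 of 18049 and 79 of 18049 genes rose. The histone median was 0.13 with no filter and 0.755 with the stricter one. In the combination over ATRi the 2 calls became 1 under upper quartile factors, the tailless RNA covariate and without any 1 library. Over the 8 libraries they became 0. Over all genes 314, 206, 62 to 87 and 29 then rose, against 294 in the main fit. The histone calls became 6 under DESeq2 and with only the groups compared, where 671 of 16993 and 435 of 17074 genes rose. They became 10 under the replicate block and the mitochondrial covariate, where 906 and 1548 of 18049 genes rose. In the combination over 5-Ph-IAA the 12 calls became 7 to 11 without 1 library. Over all genes 360 to 572 then rose, against 790 in the main fit. Under the mitochondrial covariate 18 histone genes were called, 1 of them lower, where 5507 of 18049 genes were called in either direction. The histone median was 1.68 over the 8 libraries. The interaction had 1 histone call under DESeq2, where 212 of 17343 genes were called in either direction. Its histone median was 0.605 over the 8 libraries and 0.349 to 0.983 without 1 library. The median in 5-Ph-IAA over DMSO was -0.14 to 0.41 without 1 library. For all of these the cause was not tested. Changes near 0 turned sign. H4C14 with H4C15 had an interaction of -0.041 under the mitochondrial covariate, -0.64 over the 8 libraries and -0.38 to 0.86 without 1 library, and in 5-Ph-IAA over DMSO gave -0.44 to 0.80. H4C11 with H4C12 in 5-Ph-IAA over DMSO gave -0.11 over the 8 libraries and -0.0551 to 0.231 without 1 library. Without 1 library, the difference in tailless RNA share ranged from -0.00755 to 0.0333 percentage points for the combination over DMSO, -0.00832 to 0.00815 for ATRi over DMSO, -0.00981 to 0.0311 for the combination over ATRi and -0.0139 to 0.027 for the combination over 5-Ph-IAA. The difference in mitochondrial share ranged from -0.785 to 3.37 for ATRi over DMSO, -1.4 to 2.89 for 5-Ph-IAA over DMSO and -0.00351 to 2.97 for the combination over ATRi. With the set number as a replicate block 14 histone genes were called in the combination over 5-Ph-IAA, where 1652 of 18049 genes rose. In the combination over DMSO 15 were called, where 2109 of 18049 genes rose. H4C14 with H4C15 also passed over DMSO, at 0.968 (edgeR adjusted p = 0.0181). Whether the numbers pair the libraries could not be decided. The 36 genes not tested had no value above 18.4 counts.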
